A study of Mus musculus with 8 samples.

Results

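The genes described here are the secreted Wnt ligands, their receptors and modulators, and the core transducers of the Wnt pathway, as measured in mouse splenic stroma. They were taken by symbol: every probe for a gene whose name starts with *Wnt*, *Fzd*, *Sfrp*, *Dkk* or *Rspo*, together with *Lrp5*, *Lrp6*, *Ctnnb1*, *Apc*, *Axin1*, *Axin2*, *Lef1*, *Tcf7*, *Tcf7l1*, *Tcf7l2*, *Frzb*, *Wif1*, *Dvl1*, *Dvl2*, *Dvl3* and *Gsk3b*. This gave 69 probes for 54 genes, of 24613 probes and 15967 named genes on the array. No probe carried the symbols *Lrp5*, *Axin1* or *Tcf7*, and the name rule also took *Dkkl1*, a Dickkopf-like gene.

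The study asked which genes of the splenic stroma depend on the lymphotoxin beta receptor (LTβR), a receptor of the tumor necrosis factor family needed to build and maintain lymphoid organs. Total RNA from 4 sample types was hybridized to Illumina beadchips, with 2 arrays per type and 8 in all. All mice were C57BL/6 and 8 to 10 weeks old, and the LTβR-KO mice, which lack the receptor in every cell, had been backcrossed more than 10 times. WT and LTβR-KO stroma were the fragments of fresh spleen kept by a 70 µm mesh, and WT splenocytes were the cells that passed it. Cultured WT stroma was the adherent cells of whole WT spleen grown in DMEM with serum to week 3 to 4 and passage 2 to 3. The descriptions disagree on whether the 2 arrays of a type are technical or biological replicates, and the number of animals pooled is not given, so the p-values here measure the spread between arrays, which may be technical only. The arrays were alike in brightness, with a median bead signal between 55.9 and 66.6 and 9900 to 11283 probes detected per array.

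The sample types were checked against marker genes, and none was a pure population. From WT to LTβR-KO stroma, 12 of 19 T and NK cell markers, 8 of 11 B cell markers and 8 of 8 pancreatic acinar markers rose, and 10 of 16 endothelial and 6 of 10 smooth muscle and pericyte markers fell. The summed signal of the smooth muscle and pericyte markers was 36420 to 39860 on the WT arrays and 22130 to 23980 on the LTβR-KO arrays. Over the same arrays the endothelial sum went from 20990 to 21510 in WT to 14680 to 16270 in LTβR-KO, and the fibroblast sum from 4995 to 5703 to 6021 to 6327. The fibroblast markers were split, as 3 of 11 rose (*Dpt*, *Col3a1* and *Fbln1*) and 2 fell (*Pdpn* and *Mfap5*). Cultured stroma had a macrophage marker sum of 60780 to 62300 against 5817 to 6284 in fresh WT stroma, and 10 of 16 endothelial markers were detected on neither cultured array. In such bulk samples fewer cells of a type and less RNA per cell cannot be told apart, and the part of cell makeup in the results was not tested. *Ltbr* itself read 6.44 and 6.80 in WT and 6.82 and 7.18 in LTβR-KO stroma (log2 signal; limma, adjusted p = 0.257). The position of this probe relative to the deleted part is not known here, so it does not check the genotype.

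Wnt proteins are secreted lipid-modified ligands that bind Frizzled receptors together with LRP5, LRP6 or other coreceptors. In the canonical branch, Dishevelled proteins then stop the complex of Axin, APC and GSK3 from marking β-catenin for destruction, and β-catenin acts in the nucleus with LEF and TCF factors. R-spondins raise the number of Frizzled receptors at the cell surface, whereas SFRP and Dickkopf proteins restrain the pathway from outside the cell. Wnt5a is best known for branches that do not use β-catenin, including planar cell polarity.

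Promoter sequences were looked up in a RefSeq table (build GRCm38.p6), which matched 38 of the 54 genes. The 250 bases before the start site are shown for *Rspo1* and *Wnt6*, the members lower in LTβR-KO stroma for which the table has an entry, and for *Fzd7* and *Axin2*, which moved in opposite directions in culture. Capitals mark the TCF/LEF forms (CTTTG followed by AA, AT, TA or TT) and the GC box (GGGCGG), on either strand, and GC boxes may overlap each other.
Rspo1, chr4:124986180-124986429, + strand: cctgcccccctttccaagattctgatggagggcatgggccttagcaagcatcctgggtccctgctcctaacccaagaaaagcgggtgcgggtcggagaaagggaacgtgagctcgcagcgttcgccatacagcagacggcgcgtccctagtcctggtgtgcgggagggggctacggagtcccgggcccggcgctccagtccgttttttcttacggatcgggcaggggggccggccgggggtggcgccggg
Wnt6, chr1:74771642-74771891, + strand: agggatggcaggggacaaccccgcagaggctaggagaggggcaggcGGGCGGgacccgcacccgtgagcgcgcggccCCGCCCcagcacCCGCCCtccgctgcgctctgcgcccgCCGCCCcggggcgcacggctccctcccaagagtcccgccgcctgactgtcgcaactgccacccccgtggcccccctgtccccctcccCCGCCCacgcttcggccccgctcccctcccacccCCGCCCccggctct
Fzd7, chr1:59481897-59482146, + strand: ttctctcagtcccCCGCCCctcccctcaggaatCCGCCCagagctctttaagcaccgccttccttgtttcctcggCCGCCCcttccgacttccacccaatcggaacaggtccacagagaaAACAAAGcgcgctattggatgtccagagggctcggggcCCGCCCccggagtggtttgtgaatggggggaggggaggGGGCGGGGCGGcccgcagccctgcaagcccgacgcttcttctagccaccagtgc
Axin2, chr11:108920099-108920348, + strand: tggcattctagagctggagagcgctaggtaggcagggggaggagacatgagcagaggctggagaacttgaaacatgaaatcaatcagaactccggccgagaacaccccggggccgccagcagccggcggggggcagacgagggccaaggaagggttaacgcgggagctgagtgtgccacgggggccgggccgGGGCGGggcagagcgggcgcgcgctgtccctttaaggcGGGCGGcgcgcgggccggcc
In all, 7 motifs were searched on both strands, and 4 of them were added after hits of the first 3 had been seen. The first were the TCF/LEF forms that end in AA and AT and a loose NF-κB form, GGG and CC with any 5 bases between them. The loose form occurred 3 times before *Rspo1*, 6 times before *Wnt6*, 4 times before *Fzd7* and once before *Axin2*, with overlapping matches counted, and 45.8% of all 32851 promoters held it. The stricter NF-κB consensus, tried next, occurred in none of these sequences and in 3.9% of all promoters. Of the TCF/LEF forms, held by 14.8% of all promoters, only the one ending in TT was found in the sequences shown, once before *Fzd7*. The start sites of *Lef1*, *Tcf7l2* and *Dvl1*, not shown here, were searched too. There, 1 TCF/LEF match lay before a start site of *Lef1* and 1 before a start site of *Tcf7l2*. The GC box, held by 32.7%, occurred 6 times before *Wnt6*, 6 times before *Fzd7* and 2 times before *Axin2*, and *Rspo1* had no match to it. These matches are descriptions of sequence, and no binding was measured.

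Detection was sparse among these genes. A probe was called detected where its deposited detection p, which compares it with the array's negative controls, was under 0.05 on both arrays of a type. By this rule 23 of 69 member probes (33.3%) and 21 of 54 genes were detected in at least 1 sample type, against 50.3% of all probes on the array. WT stroma had the most, with 20 member probes (29.0%, against 43.2% of all probes), followed by LTβR-KO stroma with 17 (24.6%, against 41.4%), cultured stroma with 15 (21.7%, against 39.3%) and splenocytes with 14 (20.3%, against 42.2%).

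The ligands were the largest class of genes without detection, with 14 of 33. Of 18 *Wnt* genes on the array, WT stroma had *Wnt2b*, *Wnt5a*, *Wnt5b* and *Wnt6* on both arrays. LTβR-KO and cultured stroma had *Wnt2b* and *Wnt5a*, and splenocytes had *Wnt2b* alone. *Wnt5b* read 4.96 on each WT stroma array, near the detection limit, and 5.48 and 4.79 in culture. It was detected on 1 of 2 arrays in each type other than WT stroma, so it was not particular to WT stroma. Among 4 R-spondin genes, *Rspo1* and *Rspo3* were detected in both fresh stromas and *Rspo3* in every sample type. The Frizzled receptors *Fzd2* and *Fzd5* were detected everywhere, *Fzd7* in the 3 stromal types, and *Fzd3* on both arrays of cultured stroma only. *Fzd3* read 5.15 and 4.94 in culture, near the detection limit, and was also detected on 1 of 2 WT stroma arrays. Of the genes classed by name as secreted inhibitors, *Dkk3* was detected everywhere, *Sfrp1* and *Frzb* in the 3 stromal types, and *Dkkl1* in all but cultured stroma. The transducers *Apc*, *Ctnnb1*, *Dvl1* and *Gsk3b* were detected everywhere and *Axin2* everywhere but in culture. *Tcf7l2* was detected in all types, and *Lef1* on both arrays of splenocytes only. A gene counted as detected where any of its probes was. A second probe of *Apc*, *Dvl1*, *Dkk3*, *Dkkl1*, *Tcf7l2*, *Rspo3*, *Fzd5* and *Wnt2b* was detected on no array. That of *Ctnnb1* was detected on 1 cultured array only. For these genes the values rest on the brighter probe, and the other does not bear them out.

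The remaining 33 genes were detected on both arrays of no sample type. They were the ligands *Wnt1*, *Wnt2*, *Wnt3*, *Wnt3a*, *Wnt4*, *Wnt7a*, *Wnt7b*, *Wnt8a*, *Wnt9a*, *Wnt9b*, *Wnt10a*, *Wnt10b*, *Wnt11* and *Wnt16*, the receptors *Fzd1*, *Fzd4*, *Fzd6*, *Fzd8*, *Fzd9*, *Fzd10* and *Lrp6*, the inhibitors *Dkk1*, *Dkk2*, *Dkk4*, *Sfrp2*, *Sfrp4*, *Sfrp5* and *Wif1*, and *Rspo2*, *Rspo4*, *Dvl2*, *Dvl3* and *Tcf7l1*. Single-array detection was seen for *Wnt10b*, *Fzd1*, *Fzd8*, *Lrp6*, *Dvl2* and *Tcf7l1*. A probe not above the negative controls puts an upper limit on the signal and does not show that the mRNA is absent.

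**Figure D1:**
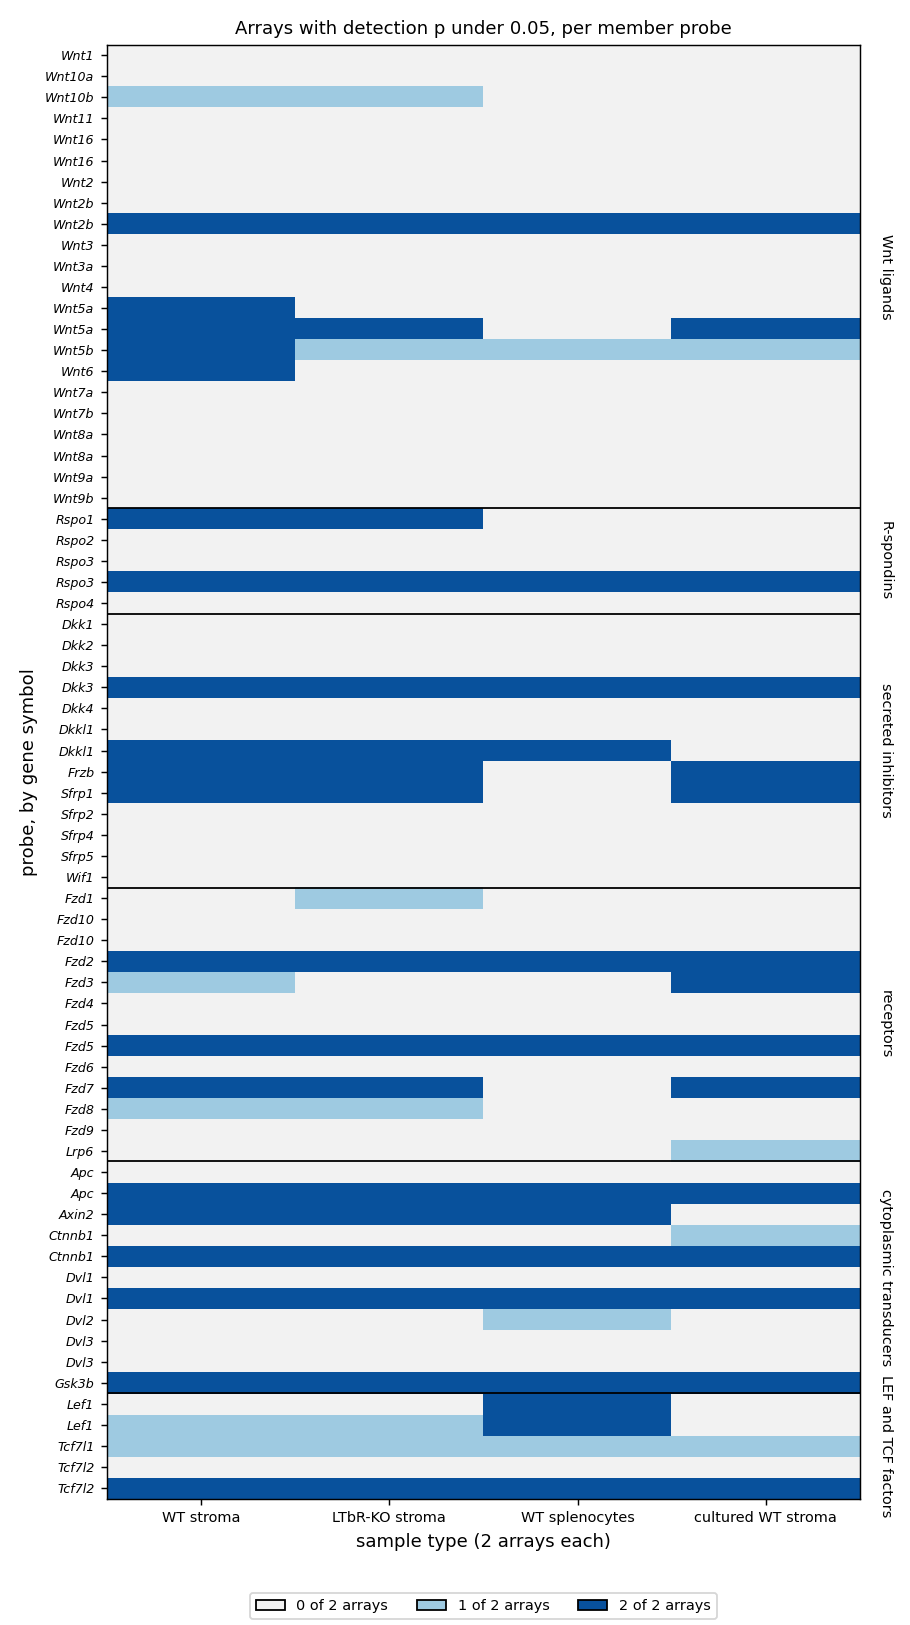
Detection of the 69 member probes (rows, grouped by role) in the 4 sample types (columns), where dark blue is 2 of 2 arrays with detection p under 0.05, light blue 1 and grey 0. WT stroma has 20 dark cells and splenocytes 14, and the *Wnt6* row is dark in WT stroma alone.

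The first comparison asked which members change when the stroma lacks LTβR. *Rspo1*, *Wnt5a*, *Rspo3* and *Wnt6* were lower in LTβR-KO stroma, and no member was higher by the same test. At an unadjusted p under 0.05, 7 members were lower and 1 higher. The 4 called members are 2 ligands and the 2 detected R-spondins, and no receptor, inhibitor, transducer or LEF/TCF factor passed the test. The 4 genes are 19.0% of the 21 tested members, whereas 7.96% of all tested genes were called lower and 5.40% higher. The members were chosen with earlier results of these data known, so such shares are descriptive only. The median change of the tested members was -0.32 on the log2 scale against 0.01 for all 9003 genes. *Wnt6* passed the detection filter through WT stroma alone, as did *Wnt5b*, so a filter on detection favoured a lower value elsewhere for them. Of the 21 members, 13 had arrays that did not overlap between the genotypes, against 53.7% of all genes. Signals are given as normalised log2 signals, tests are limma's moderated test, and adjusted p-values are Benjamini-Hochberg over all tested probes.

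*Rspo1*, which enhances Wnt signaling at the receptor, read 6.05 and 5.91 on the WT arrays and 4.95 and 5.12 on the LTβR-KO arrays. Both WT arrays were above both LTβR-KO arrays, and the fall was 1.93-fold (log2 change -0.95, SE 0.14, adjusted p = 0.00201). The LTβR-KO readings lay near the detection limit, and the log2 change ran from -1.44 to -0.53 under the alternative settings. Splenocytes and cultured stroma, at 4.33 to 4.45, were not detected. *Rspo3*, its relative, read 7.11 and 7.62 in WT and 6.53 and 6.69 in LTβR-KO stroma. Its groups did not overlap either, and the fall of 1.69-fold lay at the edge of the threshold (log2 change -0.76, SE 0.22, adjusted p = 0.0473). It missed the threshold under 12 of 18 alternative settings, among them those without replicate 2 of WT stroma (adjusted p = 0.241), without either LTβR-KO array (0.141 and 0.103) and without either cultured array (0.0802 and 0.0732).

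*Wnt5a* has 2 tested probes. The brighter read 8.10 and 7.97 in WT and 6.97 and 7.29 in LTβR-KO stroma, a 1.86-fold fall with no overlap (log2 change -0.90, SE 0.23, adjusted p = 0.0312). The dimmer read 5.54 and 5.34 in WT stroma and was detected in no other sample type, so it passed the detection filter through WT stroma alone and its lower reading in LTβR-KO stroma, 4.55 and 4.65, is no separate support for the brighter probe. The call on the brighter probe was lost under 8 of 18 alternatives, including leaving out any one of the WT stroma, LTβR-KO stroma or splenocyte arrays (adjusted p = 0.0565 to 0.141). *Wnt6*, a ligand first known from epithelial tissues, read 4.97 and 5.17 in WT stroma, near the detection limit, and 4.53 and 4.46 in LTβR-KO stroma, where it was not detected. WT stroma was at least 1.15-fold higher (log2 change -0.58, SE 0.14, adjusted p = 0.0223), and 7 of 17 alternatives lost the call, among them those without replicate 1 or 2 of WT stroma (adjusted p = 0.0513 and 0.135) and without replicate 2 of LTβR-KO stroma (0.0835).

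The remaining 17 tested members did not pass, and 15 of the 21 tested members had a fitted change below 0. Their fitted log2 changes ran from -0.60 for *Sfrp1* to 0.44 for *Frzb*, both secreted Frizzled-related inhibitors. *Sfrp1* read 8.87 and 7.97 in WT and 8.20 and 7.45 in LTβR-KO stroma, so its replicates differed by more than the genotypes (SE 0.29, adjusted p = 0.228). *Frzb* read 5.49 and 5.23 in WT and 5.60 and 5.99 in LTβR-KO stroma (adjusted p = 0.128). *Dkk3*, the brightest inhibitor, gave 8.98 and 9.35 against 8.47 and 8.96 (adjusted p = 0.177). *Tcf7l2*, the brightest transcription factor of the set, gave 9.05 and 8.88 against 8.25 and 8.76 (adjusted p = 0.134). *Axin2*, a scaffold of the destruction complex and a common readout of β-catenin signaling, gave 5.76 and 5.77 against 5.53 and 5.19 (log2 change -0.41, SE 0.15, adjusted p = 0.114). *Fzd5*, the brightest receptor, and *Dvl1*, the brightest transducer, had overlapping arrays in the 2 genotypes. A change missing the threshold here does not show that the genotypes were alike.

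**Figure D2:**
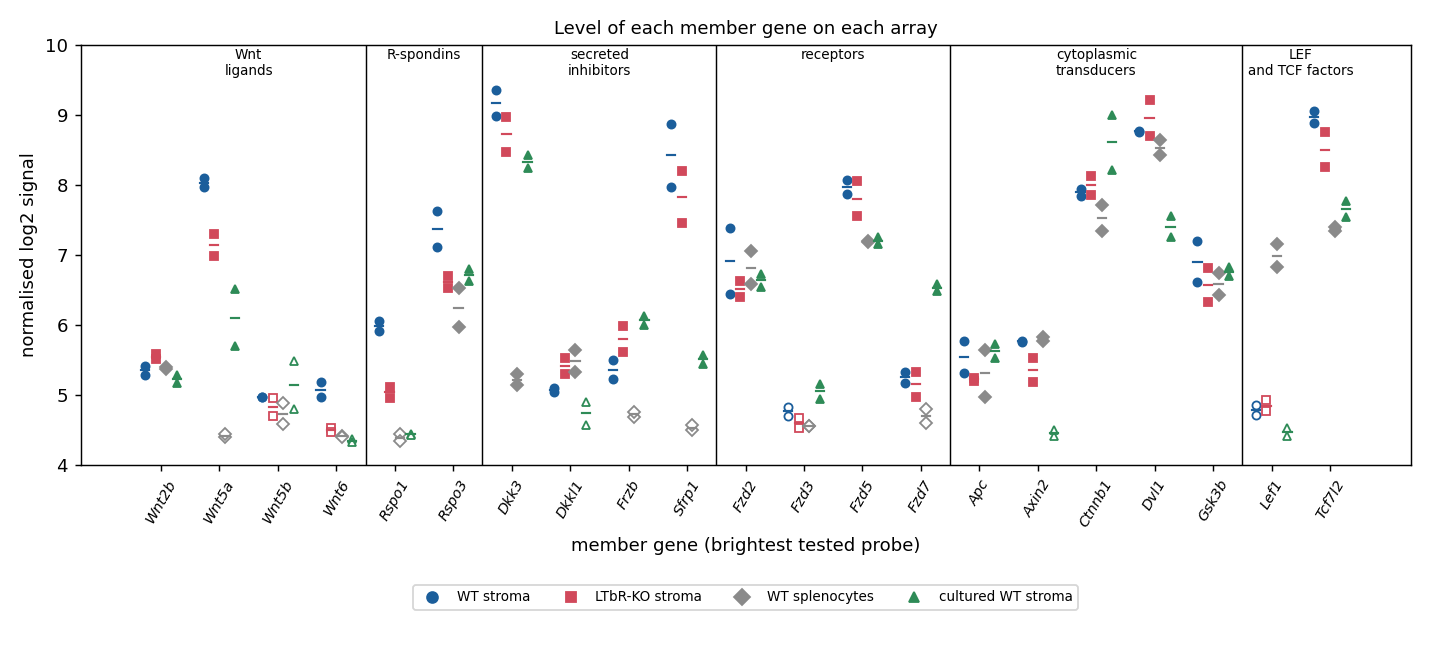
Normalised log2 signal (y axis) of the brightest tested probe of each of the 21 member genes (x axis, grouped by role) on every array, with a short line at the mean of 2 arrays. Filled points are sample types in which the gene was detected on both arrays, and open points those in which it was not. *Wnt5a* and *Rspo1* fall from WT to LTβR-KO stroma with no overlap, and *Lef1* stands out in splenocytes.

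The pathway around these genes was described with a list of other Wnt pathway components, of which 60 are on the array and 38 were tested. In LTβR-KO stroma 9 of 38 were lower (23.7%, against 7.96% of all genes) and none higher by limma. At an unadjusted p under 0.05, 15 were lower and 1, *Rnf43*, higher, and the list's median log2 change was -0.30. The list was written after the study's own gene tables, which hold several of these genes, had been read, so the count is not independent evidence of a direction. The largest falls were in *Gpc3*, a cell-surface glypican (log2 change -1.04, SE 0.16, adjusted p = 0.00276), *Csnk1e*, a casein kinase (-0.94), *Vangl2*, a planar polarity membrane protein (-0.85), *Tle2*, a Groucho-type corepressor (-0.84), and *Ror2*, a receptor for Wnt5a (-0.79). *Prickle1*, *Nkd2*, *Ryk* and *Sostdc1* were lower by 0.57 to 0.68 on the log2 scale. Of these, *Ryk* is a further Wnt receptor and *Prickle1* a planar polarity protein, whereas *Nkd2* and *Sostdc1* are known as antagonists. *Vangl2* was detected on only 1 of 2 LTβR-KO arrays.

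Genes known as Wnt targets in other tissues were taken as a second list, with 19 of 31 tested. It shares the tested *Axin2*, *Lef1* and *Fzd7* and the undetected *Dkk1* and *Dkk2* with the members. This list too was chosen with earlier results of these data known. Its shares beside those of all genes are therefore descriptive only, here and in the other comparisons. *Msx1*, *Ccnd1* and *Sox9* were lower in LTβR-KO stroma (15.8%, against 7.96% of all genes), with log2 changes of -1.41 (SE 0.14, adjusted p = 0.000184), -1.06 (SE 0.13, adjusted p = 0.000818) and -0.76 (SE 0.19, adjusted p = 0.0284). No target was higher by limma. At an unadjusted p under 0.05, 4 were lower and 1 higher. The higher one, *Rnf43*, is in both lists and is also the 1 higher gene of the other pathway components. *Msx1* is a homeobox factor, *Ccnd1* encodes cyclin D1, and *Sox9* is a factor of mesenchymal and epithelial progenitors.

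**Figure D3:**
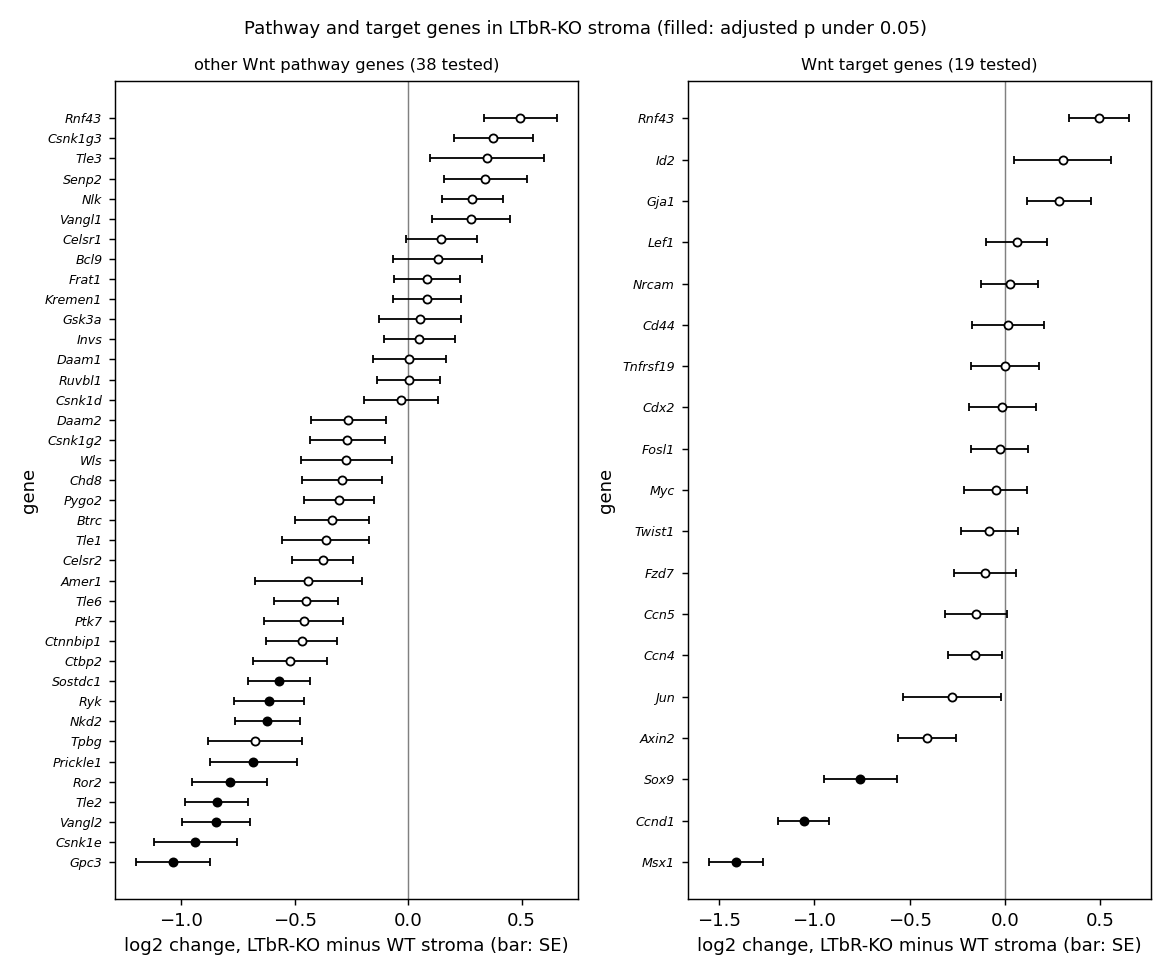
Log2 change from WT to LTβR-KO stroma (x axis, bars SE) of 38 other Wnt pathway genes (left) and 19 Wnt target genes (right), 1 row per gene, filled where the adjusted p was under 0.05. The filled points, 9 on the left and 3 on the right, all lie below 0.

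The second comparison asked which members belong to the stroma and which to the cells washed out of it. WT stroma was higher than splenocytes for 10 members and lower for 1, *Lef1*, that is 47.6% and 4.76% of the tested members against 27.1% and 27.7% of all genes (54.9% either way). *Wnt6* passed the detection filter through WT stroma alone and *Lef1* through splenocytes alone. *Sfrp1*, *Wnt5a*, *Frzb*, *Fzd7* and *Rspo1* passed it through stromal types only. For these genes the filter favoured the direction seen, so counting them is no separate support for it. The arrays of 16 of 21 members did not overlap, against 78.2% of all genes. The 3 comparisons share the WT stroma arrays, so their values are given side by side and not as separate support.

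The widest gaps were in 2 inhibitors and 1 ligand. *Dkk3*, a divergent Dickkopf protein, read 8.98 and 9.35 in stroma against 5.29 and 5.14 in splenocytes, or 15.4-fold (log2 difference 3.95, SE 0.20, adjusted p = 6.48e-08). *Sfrp1*, which binds Wnt proteins outside the cell, read 8.87 and 7.97 in stroma and was not detected in splenocytes, which bounds the difference at 11.8-fold or more (adjusted p = 1.38e-06). *Wnt5a* was likewise undetected in splenocytes, at 4.39 and 4.44, so stroma was at least 8.96-fold higher (adjusted p = 4.36e-07). These 3 genes had no overlap between stroma and splenocytes.

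*Tcf7l2* was 3.04-fold higher in stroma than in splenocytes, where it read 7.33 and 7.40 (log2 difference 1.60, SE 0.18, adjusted p = 3.37e-05). *Rspo1* was at least 2.17-fold higher (adjusted p = 4.61e-06). *Rspo3* was 2.18-fold higher, against 5.96 and 6.52 in splenocytes (adjusted p = 0.00124). *Fzd5*, *Fzd7*, *Frzb* and *Wnt6* were also higher in stroma, by smaller amounts. The call on *Frzb* was lost without replicate 1 of WT stroma or of splenocytes and that on *Fzd7* without replicate 2 of either (adjusted p up to 0.0692 and 0.112).

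*Lef1*, a partner of β-catenin that is abundant in T cells, ran the other way. It read 6.82 and 7.16 in splenocytes, 4.86 and 4.71 in WT stroma and 4.92 and 4.77 in LTβR-KO stroma, and it was detected on 1 of 2 arrays in each fresh stroma. Splenocytes measured 4.61-fold above WT stroma, a value that rests on that single detection in WT stroma (log2 difference -2.21, SE 0.16, adjusted p = 1.04e-06). Both tested *Lef1* probes passed the detection filter through splenocytes alone, so the second, at least 1.87-fold higher there, is no separate support. The summed signal of 19 T and NK cell markers was 17880 to 18140 in splenocytes, 3867 to 4268 in WT stroma, 8143 to 8973 in LTβR-KO stroma and 767 to 783 in culture. The part of T cells in the *Lef1* signal was not tested, and a change of *Lef1* between the 2 stromas could not be judged at readings so near the detection limit.

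Of the other pathway genes, 21 of 38 were higher in stroma (55.3%, against 27.1% of all genes) and 4 lower (10.5%, against 27.7%). The study kept in its gene tables only genes higher in WT stroma than in WT splenocytes. This list was written after those tables had been read, so the count is not independent evidence of a direction here either. The largest differences were in *Gpc3* (at least 10.2-fold), and in *Ryk*, *Tle2*, *Prickle1* and *Tle6*, with log2 differences of 3.61, 3.58, 3.17 and 2.90. Splenocytes were higher for *Tle3*, *Frat1*, *Ruvbl1* and *Gsk3a*. Among the target genes 9 of 19 were higher in stroma (47.4%) and 2 lower (10.5%), the higher led by *Gja1* (log2 difference 4.33) and *Ccn5* (at least 10.9-fold), and the lower being *Lef1* and *Myc*. Of the genes named here, *Tle3*, *Frat1*, *Lef1* and *Myc* passed the detection filter through splenocytes alone. *Gpc3* and *Ccn5* passed it through stromal types only. For these genes too the filter favoured the direction seen, so counting them is no separate support for it.

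**Figure D4:**
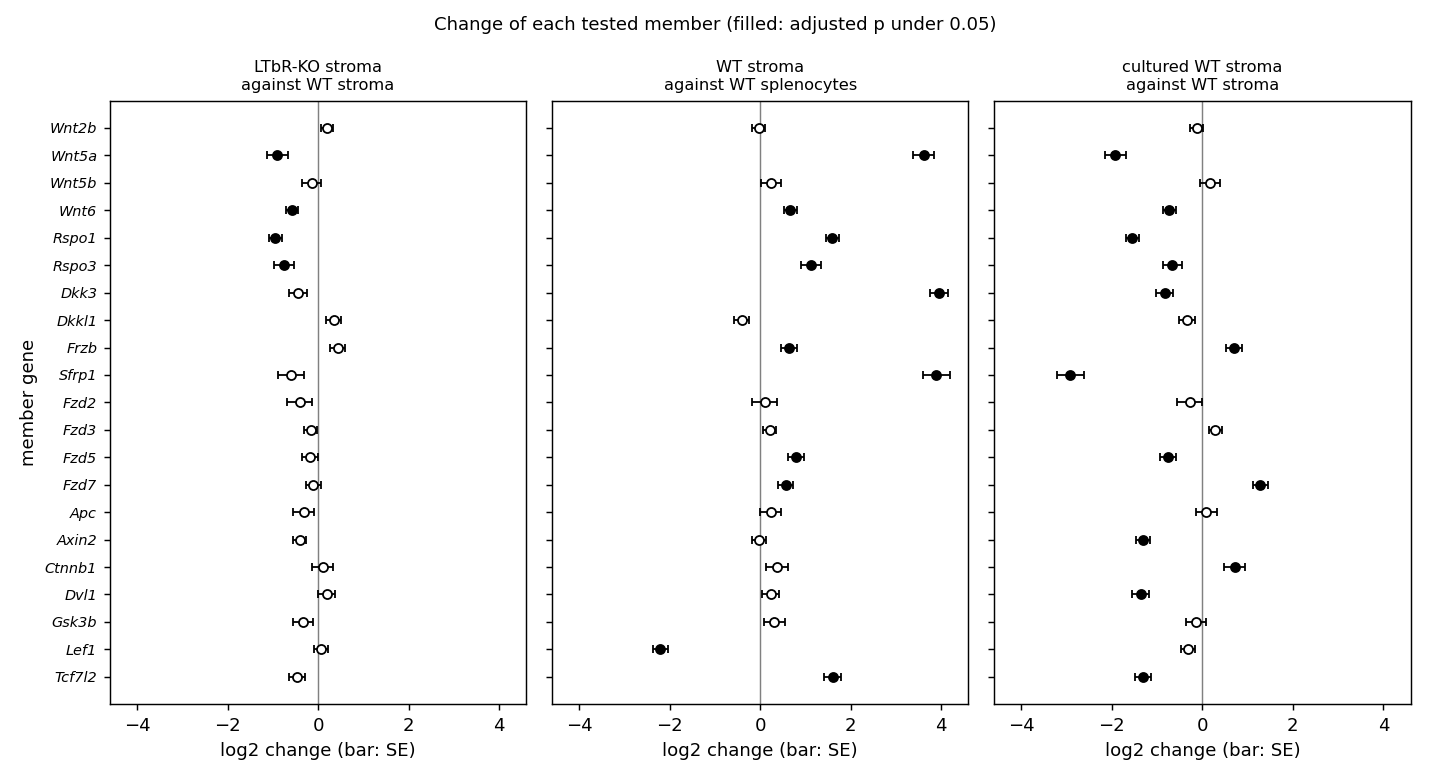
Log2 change of each of the 21 tested members (rows) in the 3 comparisons (panels), with SE bars from the fit and filled points where the adjusted p was under 0.05. There are 4 filled points in the left panel, 11 in the middle and 13 in the right, and *Fzd7*, *Frzb* and *Ctnnb1* are the filled points above 0 in the right panel.

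The third comparison asked what becomes of these mRNAs when stromal cells grow without the tissue. Cultured stroma was lower than fresh WT stroma for 10 members and higher for 3 (47.6% and 14.3% of those tested, against 32.8% and 31.9% of all genes, or 64.7% either way). The arrays of 17 of 21 members did not overlap, against 82.4% of all genes, and the members' median log2 change was -0.33. Among the lower members, *Wnt6* passed the detection filter through WT stroma alone, *Rspo1* through the fresh stromas and *Axin2* through every type but culture. For them the filter favoured a lower value in culture. Culture also changed the cells present, as the macrophage and endothelial marker sums show, and the part of this in the members' values was not tested.

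*Sfrp1* fell furthest, from 8.87 and 7.97 to 5.43 and 5.57, or 7.56-fold (log2 change -2.92, SE 0.29, adjusted p = 8.22e-06). *Wnt5a* read 5.70 and 6.50 in culture, a fall of 3.81-fold (log2 change -1.93, SE 0.23, adjusted p = 3.36e-05), while its cultured arrays differed more from each other than those of any other type. *Rspo1* dropped out of detection, by at least 2.00-fold (adjusted p = 4.08e-06).

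*Axin2* also left detection, going from 5.76 and 5.77 to 4.40 and 4.49 (at least 1.72-fold, adjusted p = 2.41e-05). Between WT stroma and splenocytes its log2 difference was -0.03 (adjusted p = 0.887). *Dvl1*, a Dishevelled protein, fell 2.57-fold to 7.26 and 7.55 (adjusted p = 9.88e-05). *Tcf7l2* fell 2.48-fold to 7.54 and 7.77 (adjusted p = 0.000101). *Dkk3* remained bright, at 8.43 and 8.23, and fell 1.78-fold (adjusted p = 0.00338). *Fzd5*, *Rspo3* and *Wnt6* were lower as well, and the call on *Rspo3* was lost under 4 of 18 alternatives, among them those without WT stroma replicate 2 or cultured replicate 1 (adjusted p up to 0.172).

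*Fzd7*, a Frizzled receptor known from stem and progenitor cells, rose 2.43-fold, from 5.17 and 5.33 to 6.58 and 6.48 (log2 change 1.28, SE 0.16, adjusted p = 5.22e-05). *Frzb* rose 1.63-fold to 6.00 and 6.12 (adjusted p = 0.00394). *Ctnnb1*, which encodes β-catenin, rose 1.64-fold to 8.21 and 8.99 (log2 change 0.71, SE 0.24, adjusted p = 0.0233), a call lost under 5 of 18 alternatives, among them those without either WT stroma array or cultured replicate 2 (adjusted p up to 0.221). The genes classed by name as inhibitors thus moved in both directions, with *Sfrp1* and *Dkk3* lower and *Frzb* higher.

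Of the other pathway genes, 17 of 38 were lower in culture (44.7%, against 32.8% of all genes) and 7 higher (18.4%, against 31.9%), led by *Tle2* (log2 change -3.95), *Gpc3* (at least 9.45-fold) and *Csnk1g3* (-2.24) among the lower and *Tpbg* (1.95) and *Nkd2* (0.94) among the higher. Of the target genes 6 of 19 were lower (31.6%, near the share of all genes) and 8 higher (42.1%). *Msx1* left detection (at least 5.50-fold lower), and *Nrcam*, *Jun* and *Twist1* rose, the first by at least 2.17-fold and the others by 1.54 and 1.49 on the log2 scale. *Nrcam* and *Fosl1*, both among the higher targets, passed the detection filter through cultured stroma alone. Several lower genes, among them *Msx1* and *Gpc3*, passed it only through types other than culture. For these genes the filter favoured the direction seen, so counting them is no separate support for it.

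*Apc*, *Gsk3b*, *Wnt2b*, *Wnt5b*, *Fzd2*, *Fzd3* and *Dkkl1* passed the test in none of the 3 comparisons. *Wnt2b* lay between 5.16 and 5.58 on all 8 arrays, the narrowest span among the members detected in every type. Under the rule that counts only both arrays, *Rspo1* was the one member detected in both fresh stromas and in neither splenocytes nor culture.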

How the data were processed

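Per the methods, RNA was amplified with Illumina TotalPrep, hybridized to MouseRef-8 beadchips and read in GenomeStudio. The authors deposited bead signal intensity per probe without normalization, detection p-values, and intensity values after cubic spline normalization and background subtraction. The bead signals were used here and the authors' normalized values served as an alternative. Signals were normalized with neqc in limma 3.58.1 (R 4.3.3; control moments inferred from detection p-values, offset 16, quantile, log2). Probes detected (p under 0.05) on both arrays of any sample type, 12389 in all, were fitted with 4 group means over 8 arrays (4 residual and 6.22 prior degrees of freedom), with p-values adjusted by Benjamini-Hochberg and a threshold of 0.05. A gene was counted by its brightest tested probe. Where neither array of a type detected a probe, the fold is a bound: the bright mean against the higher, per array, of the lowest detected signal and the probe's own. Platform annotation gave 1 symbol to 20984 probes, several to 1 and none to 3628. The number of arrays limits precision. The fit was tested on simulated data, where it missed many of the smaller set decreases. Named were all members called in LTβR-KO stroma, the brightest of each role, members called with over 2-fold change elsewhere, and the leading genes of each list. Members and lists were chosen with earlier results of these data known. Figures were drawn with matplotlib.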

Additional observations from a re-analysis of the deposited data

How the results depend on the processing

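*Rspo1* in LTβR-KO stroma was called under all 18 alternatives (adjusted p 0.00082 to 0.0275), and the other 3 members lower there were not. Of 11 members called between WT stroma and splenocytes 9 kept the call under every alternative that tested them (not *Frzb* and *Fzd7*), and of 13 in culture 11 did (not *Ctnnb1* and *Rspo3*). No called member reversed. The calls on genes of the pathway and target lists that are not members were not tested under the alternatives. The 4 members lower in LTβR-KO stroma became 2 with a background offset of 50, 2 with scaling to the 75th percentile, 1 with the authors' normalized values, 2 with no detection filter and 2 with only the compared sample types in the fit. Leaving out 1 array gave 2 to 3, with 2 without either WT stroma array or without LTβR-KO stroma replicate 2. With only the compared types, genes called fell from 717 lower and 486 higher to 365 and 226, and without WT stroma replicate 1 to 346 and 209. The single member lower in WT stroma than in splenocytes became 2 with the authors' values, 2 with no detection filter, and 1 to 2 on leaving out 1 array, the 2 arising without splenocyte replicate 1. Member probes detected in LTβR-KO stroma went from 17 to 11 at detection p under 0.01. The cause of these shifts was not tested. Replicate numbers are not said to pair samples, and same-numbered arrays deviated together with r = 0.286 for WT and LTβR-KO stroma and -0.142 to 0.108 for other types. With the replicate number as a block, 4 members were lower in LTβR-KO stroma, 10 higher in WT stroma than splenocytes and 10 lower in culture, as without it. Low signals, such as those of *Wnt6* and of *Rspo1* in LTβR-KO stroma, lie near the detection limit, where fold changes are compressed.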
